A study of Homo sapiens with 24 samples.

Results

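The S100 proteins are small calcium-binding proteins of the EF-hand type, and 10 of their genes are described here: S100A2, S100A4, S100A6, S100A7, S100A8, S100A9, S100A10, S100A11, S100A14 and S100A16. Every probe annotated to one of these symbols was taken, whatever its signal, which gave 12 of the 47323 probes of the array, with a pair of probes each for S100A4 and S100A10 and 1 probe for each of the other genes. S100 proteins sense a rise in calcium and then bind other proteins, among them the annexins, inside the cell. Several are also released and act on receptors of neighbouring cells. In stratified epithelium S100A8 and S100A9, which pair to form calprotectin, and S100A7, known as psoriasin, are antimicrobial proteins that are scarce in resting epidermis and plentiful in wounded, inflamed or malignant squamous tissue, whereas S100A2 marks the basal keratinocyte and S100A4, also called metastasin, is best known from motile mesenchymal and cancer cells.

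The study compared SCC-61, a line from a squamous cell carcinoma of the head and neck, with HaCaT, an immortalised line of skin keratinocytes used as a stand-in for normal squamous epithelium. Cells of both lines were starved in medium low in serum and then received AMP-18, a protein of the gastric mucosa, at 2 µg/ml, or nothing. RNA was collected after 24 h and after 2 h, so that there were 8 groups of 3 arrays: SCC-61 with AMP-18, untreated SCC-61, HaCaT with AMP-18 and untreated HaCaT, each at both times. SCC-61 cells had been grown in DMEM/F12 medium with hydrocortisone and HaCaT cells in DMEM, for which no hydrocortisone was listed, so line and growth medium cannot be told apart. The labels do not say that the 3 arrays of a group came from separate cultures, and p-values then measure only the spread between these arrays. Since no slide or day of work is given, a difference in handling between the 24 h and the 2 h cells cannot be told apart from time.

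Values are log2 probe intensities as deposited, in which a step of 1 is a doubling, and a probe counted as detected at a detection p under 0.05. All 10 genes were detected on all 24 arrays. A level is comparable between arrays for the same probe and not between genes. The lowest intensity of any detected probe lay between 4.28 and 4.48 on the 24 arrays, and the highest value of an array was 13.96. S100A7 in HaCaT and S100A8 in HaCaT at 24 h lay close to the lower end of this scale and S100A10 close to its upper end.

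Both lines were checked against 14 epithelial markers, of which 11 had a named probe. All 11, KRT5, KRT14, CDH1, CDH3, DSC3, DSG3, DSP, ITGB4, LAMB3, PERP and SFN, were detected on every array of both lines. Of the 11 leukocyte markers with a probe, PTPRC, CSF3R and CD3E were detected on no array, CD14 was detected on all arrays of both lines and CSF1R on all SCC-61 arrays. By the probe detected most often, FCGR3A was detected on 15 of the 24 arrays, LYZ on 11 and ITGAM on 9. MPO, ELANE and ITGAX were each detected on 1 array. Of the 8 fibroblast markers COL1A1, COL3A1, DCN and LUM were detected on all SCC-61 arrays and on some, but not all, HaCaT arrays. All 3 untreated HaCaT arrays of 24 h detected COL1A1, DCN and LUM, and 0 detected COL3A1. PDGFRA, PDGFRB and THY1 were detected on no array of either line. In RNA from whole cultures, fewer cells of a type and less RNA per cell cannot be told apart.

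**Figure D1:**
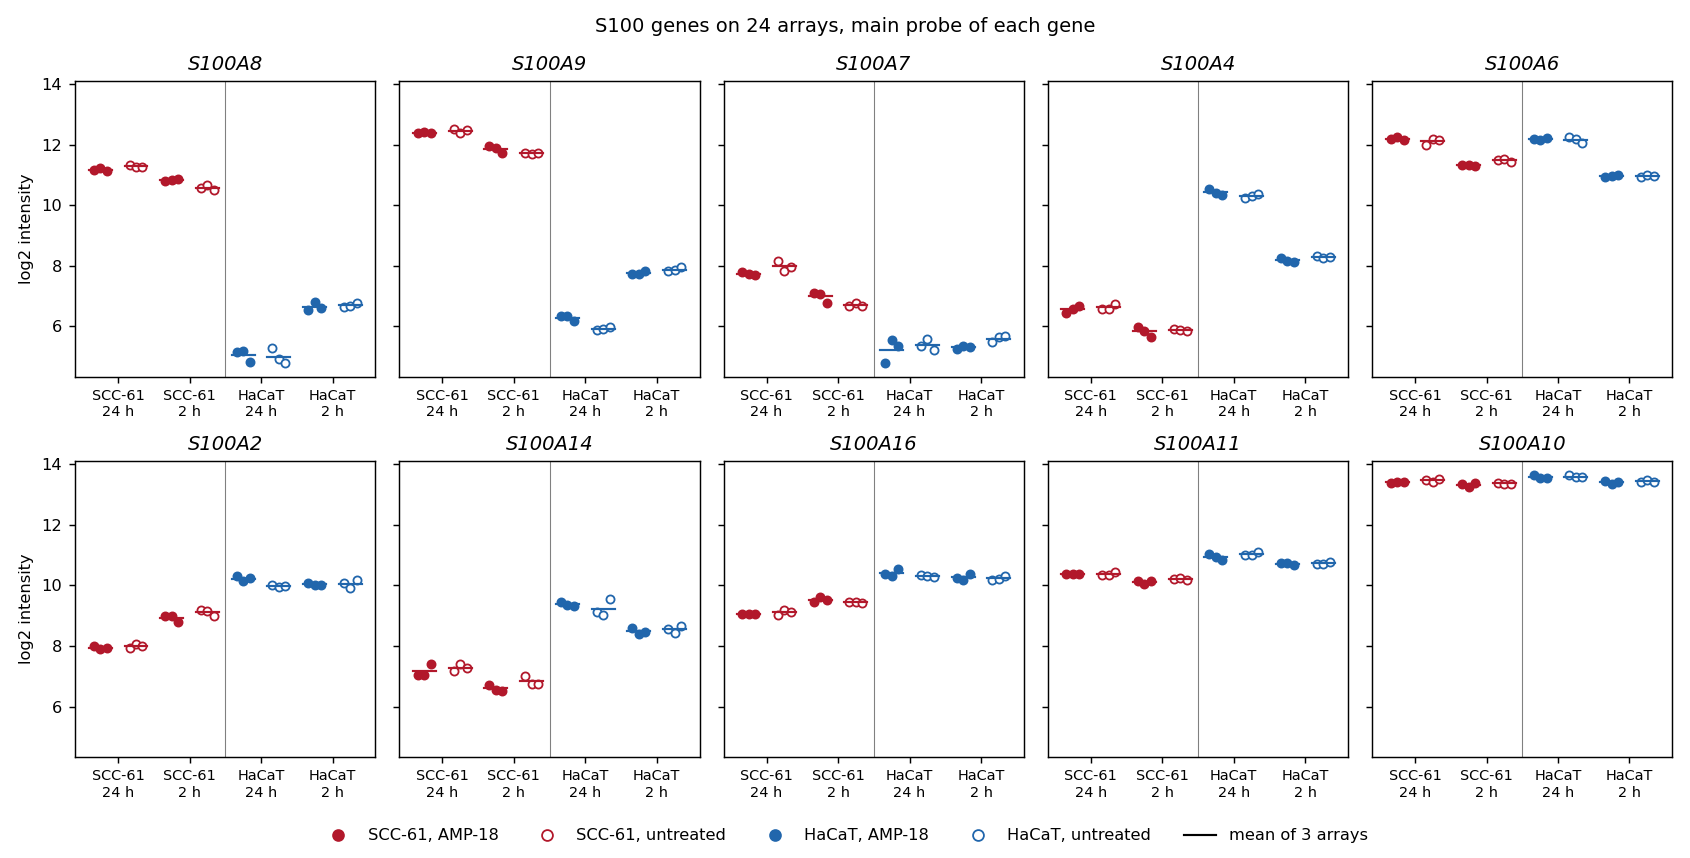
Log2 intensity (y axis) of the main probe of each S100 gene on the 24 arrays, by cell line and time (x axis). Filled points are AMP-18 arrays, open points untreated arrays, and each line is the mean of 3 arrays. S100A8 and S100A9 lie above 10 on all 12 SCC-61 arrays and below 8 on all 12 HaCaT arrays, S100A4 and S100A14 lie higher on all HaCaT arrays, and AMP-18 and untreated points of 1 line and time nearly coincide.

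All 10 genes lie in the S100 gene cluster of chromosome 1. By the RefSeq gene order S100A10 and S100A11 are neighbours at one end, then come 47 other protein-coding genes, those of the epidermal differentiation complex among them, and the other 8 follow in the order S100A9, S100A8, S100A7, S100A6, S100A4, S100A2, S100A16 and S100A14, with S100A12, S100A7A, S100A5 and S100A3 between them and S100A13 and S100A1 after them. The RefSeq promoter table (GRCh38.p14, 250 bases before to 50 after a transcript start) held 14 windows for the 10 genes. A TATA box was taken as TATAAA on the strand of the gene with its first base 20 to 40 bases before the start. It was in 2.3% of all 35116 windows and in 4 of these 14. Those 4 windows belonged to 4 of the 10 genes, 1 each to S100A9, S100A8, S100A7 and S100A4. At 24 h these 4 genes also had the largest differences between the untreated lines in either direction. At 2 h S100A14 (log2 fold change -1.72) stood ahead of S100A7 (1.11). The match of the 4 genes at 24 h was seen after the values were known and is given as a description. Their last 100 bases before the start are shown for that reason, with the TATA box in capitals, from chr1:153357754-153357853 on the plus strand for S100A9, chr1:153391074-153391173 on the minus strand for S100A8 (the second of its 3 windows), chr1:153460652-153460751 on the minus strand for S100A7 and chr1:153545807-153545906 on the minus strand for S100A4.
S100A9: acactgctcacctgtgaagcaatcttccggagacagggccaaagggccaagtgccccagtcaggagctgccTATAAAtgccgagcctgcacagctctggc
S100A8: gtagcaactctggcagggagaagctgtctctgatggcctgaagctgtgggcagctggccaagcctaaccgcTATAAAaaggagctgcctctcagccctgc
S100A7: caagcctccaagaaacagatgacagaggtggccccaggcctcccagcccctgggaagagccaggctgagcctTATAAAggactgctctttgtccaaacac
S100A4: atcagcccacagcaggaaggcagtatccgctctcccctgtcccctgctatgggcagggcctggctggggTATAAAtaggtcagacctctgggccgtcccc
The box began 29 bases before the start in S100A9 and S100A8, 28 in S100A7 and 31 in S100A4, so that the strongly SCC-61 genes and the strongly HaCaT gene share it. Only the exact string TATAAA was counted. S100A6 and S100A14 have TATAAG in the same stretch, 20 to 40 bases before a start, which was not counted. On either strand of the whole 300-base windows, TGANTCA (AP-1) was found in a window of S100A2 alone, against 7.71% of all windows, TTGCNNAA (C/EBP) in S100A11 alone, against 10.5%, and CCAAT in S100A8 and S100A16, against 34.6%. No window of these genes held more than 1 kind of motif, the TATA box included, so no different motifs overlapped.

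The first comparison asks how the untreated carcinoma line differs from the untreated keratinocyte line. At 24 h the antimicrobial genes S100A9, S100A8 and S100A7 were higher in SCC-61, by 92.7-fold, 78.5-fold and 6.02-fold, and S100A4, S100A2, S100A14, S100A16, S100A11 and S100A10 were lower, by 12.7-fold down to 1.09-fold. At 2 h the order was much the same, but S100A9 and S100A8 were apart by 14.3-fold and 14.7-fold. Of the 10 genes 3 were thus higher and 6 lower at 24 h, and 4 higher and 5 lower at 2 h, by limma with Benjamini-Hochberg adjustment over 21580 tested probes. The lines differed widely: of all tested probes 64.5% passed at 24 h (29.8% higher and 34.6% lower) and 57.1% at 2 h (26.9% higher and 30.2% lower), so the count of S100 genes is to be read against these shares. The median absolute log2 fold change of the 10 genes was 1.96 at 24 h and 1.03 at 2 h, beside 0.42 and 0.33 over all tested probes.

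S100A9, the larger partner of calprotectin, measured 12.50, 12.39 and 12.49 in untreated SCC-61 at 24 h, against 5.87, 5.92 and 6.0 in untreated HaCaT at 24 h. At 2 h it measured 11.72, 11.70 and 11.73 in SCC-61 and 7.83, 7.85 and 7.95 in HaCaT. The groups did not come near each other at either time, and the log2 fold change was 6.53 (SE 0.06, adjusted p = 1.22e-34) at 24 h and 3.84 (SE 0.06, adjusted p = 3.05e-29) at 2 h. By absolute size the 24 h difference ranked 13 among the 21580 tested probes.

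S100A8, its partner, measured 11.33, 11.27 and 11.28 in SCC-61 at 24 h, against 5.28, 4.92 and 4.79 in HaCaT. At 2 h it measured 10.57, 10.66 and 10.49 in SCC-61 and 6.65, 6.69 and 6.76 in HaCaT. The log2 fold change was 6.29 (SE 0.09, adjusted p = 3.73e-30) at 24 h, rank 17 by absolute size, and 3.88 (SE 0.09, adjusted p = 1.16e-24) at 2 h. Its HaCaT values at 24 h, 4.79 to 5.28, were close to the lowest detected probes of an array (4.28 to 4.48).

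S100A7, which kills Escherichia coli on skin, measured 8.16, 7.83 and 7.97 in SCC-61 at 24 h, against 5.37, 5.58 and 5.23 in HaCaT. At 2 h it measured 6.68, 6.77 and 6.68 in SCC-61 and 5.48, 5.64 and 5.67 in HaCaT. The arrays of the lines did not overlap, and the log2 fold change was 2.59 (SE 0.13, adjusted p = 4.80e-17) at 24 h and 1.11 (SE 0.13, adjusted p = 1.37e-08) at 2 h. S100A7 has a near-identical neighbour, S100A7A, and how far the S100A7 probe also reads that transcript is not given in the sources used here. The probe of S100A7A itself was detected on 3 SCC-61 arrays and on 0 HaCaT arrays at 24 h and was at least 1.69-fold higher in SCC-61 (adjusted p = 5.08e-09).

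S100A4 ran the other way. Its brighter probe measured 6.59, 6.59 and 6.74 in SCC-61 at 24 h, against 10.24, 10.29 and 10.38 in HaCaT. At 2 h it measured 5.91, 5.89 and 5.85 in SCC-61 and 8.33, 8.26 and 8.30 in HaCaT. The log2 fold change was -3.67 (SE 0.08, adjusted p = 4.50e-26) at 24 h and -2.41 (SE 0.08, adjusted p = 2.15e-21) at 2 h. The other S100A4 probe gave -4.55 (SE 0.09) at 24 h and -2.29 (SE 0.09) at 2 h, the same direction with a larger difference at 24 h.

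S100A2, a basal keratinocyte gene, measured 7.95, 8.07 and 8.01 in SCC-61 at 24 h, against 10.03, 9.95 and 9.97 in HaCaT, a log2 fold change of -1.97 (SE 0.07, adjusted p = 3.72e-21). At 2 h it measured 9.20, 9.15 and 8.99 in SCC-61 and 10.09, 9.93 and 10.18 in HaCaT, a log2 fold change of -0.95 (SE 0.07, adjusted p = 3.08e-13). SCC-61 was the lower line at both times and by more at 24 h.

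S100A14, an epithelial S100 protein, averaged 7.29 ± 0.12 in SCC-61 at 24 h and 9.23 ± 0.29 in HaCaT (SD, n = 3 arrays each), a log2 fold change of -1.95 (SE 0.11). It was -1.72 (SE 0.11) at 2 h. S100A16, which is widely expressed and often raised in tumours, was also lower in SCC-61, with a log2 fold change of -1.20 (SE 0.06) at 24 h and -0.79 (SE 0.06) at 2 h. S100A11, a keratinocyte growth regulator, had the smaller values of -0.66 (SE 0.05) at 24 h and -0.51 (SE 0.05) at 2 h. The highest adjusted p of these 3 genes was 5.14e-10, that of S100A11 at 2 h. No array of one line reached into the range of the other for any of them, as was so for 67.1% of all tested probes at 24 h and 65.4% at 2 h.

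S100A6 and S100A10 came closest between the lines. S100A6, or calcyclin, a gene of dividing cells, measured 11.99, 12.20 and 12.17 in SCC-61 at 24 h, against 12.25, 12.17 and 12.05 in HaCaT, and the groups overlapped: the log2 fold change of -0.04 (95% interval -0.15 to 0.07) did not pass (adjusted p = 0.527). At 2 h SCC-61 was higher, with 11.48, 11.53 and 11.42 against 10.92, 11.01 and 10.96 in HaCaT, a log2 fold change of 0.51 (SE 0.05, adjusted p = 1.08e-09). S100A10, which binds annexin A2 at the plasma membrane, measured 13.49, 13.42 and 13.52 in SCC-61 at 24 h, against 13.64, 13.58 and 13.56 in HaCaT, a log2 fold change of -0.12 (SE 0.04, adjusted p = 0.0132). At 2 h its value was -0.08 (SE 0.04, adjusted p = 0.122), and its dimmer probe gave -0.16 (SE 0.05) at both times, past the threshold at both. The 24 h call of the brighter probe was lost without untreated SCC-61 replicate 2 (adjusted p = 0.0832) or untreated HaCaT replicate 1 (adjusted p = 0.0722).

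Set in the order of the genes along the chromosome, the line differences fell into runs. S100A9, S100A8, S100A7A and S100A7 were higher in SCC-61 at both times. S100A12, which lies between S100A9 and S100A8, passed in the same direction at 2 h (adjusted p = 0.00343) and was detected on 0 untreated arrays of either line at 24 h. At 2 h S100A12 and S100A7A were detected on 0 untreated HaCaT arrays, and on 3 and 2 untreated SCC-61 arrays. Both averaged 4.44 in SCC-61 at 2 h, near the lowest detected probes, and were at least 1.02-fold higher there. From S100A4 through S100A3, S100A2, S100A16 and S100A14 to S100A13, all 6 tested genes were lower in SCC-61 at both times. S100A6 stood at the turn between them, higher in SCC-61 at 2 h and not past the threshold at 24 h. S100A5 and S100A1 were not tested, since their probes were not detected on all 3 arrays of any group.

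**Figure D2:**
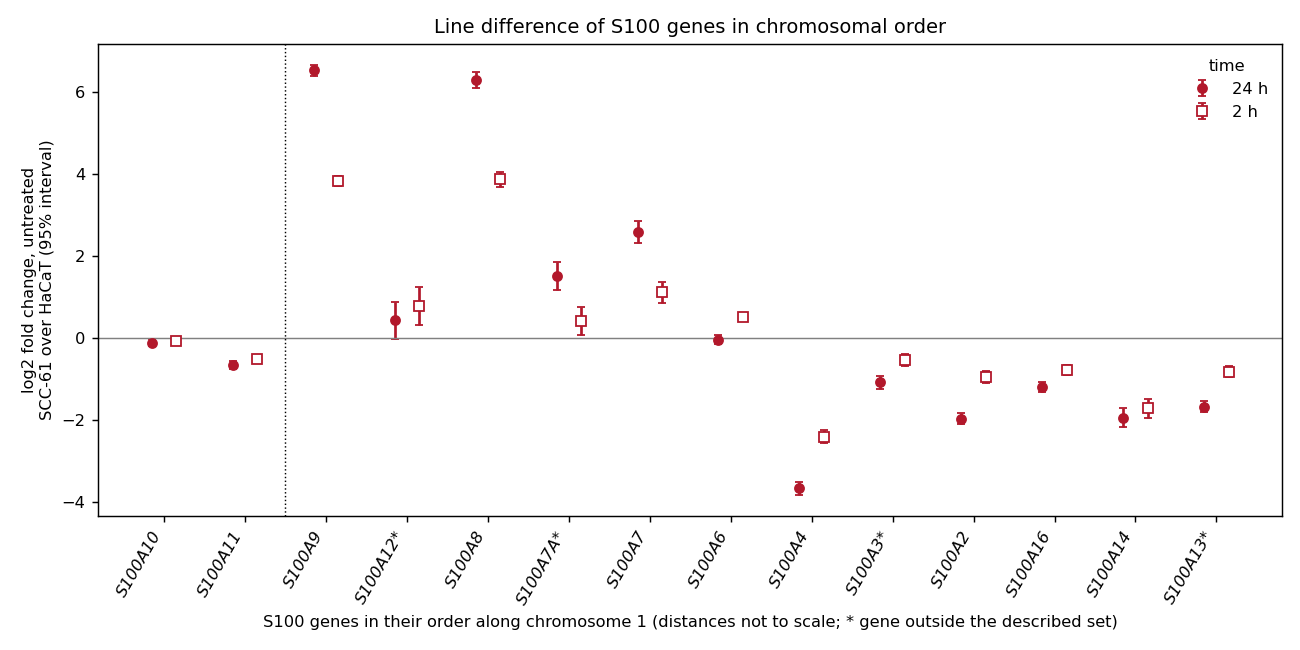
Log2 fold change, untreated SCC-61 over untreated HaCaT (y axis, with 95% intervals), for the tested S100 genes of chromosome 1 in their order along it (x axis, distances not to scale). Circles are 24 h, squares 2 h, the dotted line marks the 47 other genes between S100A11 and S100A9, and stars mark genes outside the 10. S100A9 to S100A7 lie above 0 (S100A12 was not detected in either line at 24 h), S100A4 to S100A13 lie below 0, and the 24 h values are the farther ones for most genes.

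Outside the cluster S100P, on chromosome 4, was also higher in SCC-61, with a log2 fold change of 3.46 (SE 0.08, adjusted p = 8.01e-26) at 24 h and 2.15 (SE 0.08, adjusted p = 1.70e-20) at 2 h. Of the 10 other S100 genes listed, 5 were tested, namely S100A3, S100A7A, S100A12, S100A13 and S100P. Of these, 2 were higher and 2 lower in SCC-61 at 24 h, and 3 were higher and 2 lower at 2 h. S100PBP, which codes for a protein that binds S100P and is no S100 gene itself, was lower in SCC-61 at 24 h (-0.38, adjusted p = 5.48e-05). The lower ones included S100A13, with -1.68 (SE 0.06) at 24 h, and S100A3, with -1.08 (SE 0.07). The fused-type S100 genes, which code for large proteins of the cornified cell with an S100 domain at one end, had 4 of 7 members tested, all 4 lower in SCC-61 at 24 h. At 2 h 2 were lower, FLG with -5.37 and TCHH with -1.63, and 2 were higher, RPTN by at least 1.88-fold and TCHHL1, which was detected on 0 arrays of either line, so that its value is not a measured change. FLG, the gene of filaggrin, was detected on 0 SCC-61 arrays at 24 h and on 3 HaCaT arrays and was at least 15.9-fold lower in SCC-61 (adjusted p = 6.70e-25). TCHH, the gene of trichohyalin, had a log2 fold change of -3.03 (SE 0.10, adjusted p = 3.04e-21).

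Among the partners of the S100 proteins, 11 of 14 annexin genes were tested, of which 2 were higher and 9 lower in SCC-61 at 24 h, and 4 higher and 6 lower at 2 h. ANXA2, the partner of S100A10, was lower in SCC-61 with a log2 fold change of -0.18 at 24 h and -0.22 at 2 h, while ANXA1, which binds S100A11, was higher with 0.28 and 0.37. ANXA10 was higher in SCC-61 with 3.48 at 2 h, when all arrays of both lines detected it, and passed in the same direction at 24 h (adjusted p = 4.68e-26), when 1 of the 3 HaCaT arrays did. Of 10 receptor genes for extracellular S100 proteins, 8 were tested, 6 of them higher and 0 lower in SCC-61 at 24 h (5 and 0 at 2 h), and AGER, the receptor called RAGE, was not tested. LY96, which codes for the co-receptor MD-2 of TLR4, the receptor of S100A8 and S100A9, was detected on 3 SCC-61 arrays and 0 HaCaT arrays at each time and was at least 18.3-fold higher in SCC-61 at 24 h (adjusted p = 5.58e-21) and at least 7.93-fold higher at 2 h (adjusted p = 4.99e-19). TLR4 itself was detected on all 3 SCC-61 arrays at 2 h, when it was at least 1.23-fold higher than in HaCaT, and on 1 at 24 h. It is counted among the 6 at 24 h, though 0 HaCaT arrays detected it and no bound could be given. The counts of these and the related genes above stand beside 29.8% higher and 34.6% lower of all tested probes at 24 h. At 2 h those shares were 26.9% and 30.2%.

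The second comparison is 24 h against 2 h within the untreated cells of each line, which follows S100 expression in the starved culture itself. In SCC-61 all 10 genes passed, 8 higher and 2 lower at 24 h, against 51.9% of all tested probes (24.4% higher and 27.5% lower). In HaCaT 5 were higher and 2 lower, against 57.9% of all tested probes (28.6% higher and 29.3% lower). The median log2 fold change of the 10 genes was 0.54 in SCC-61 and 0.11 in HaCaT, beside -0.03 and 2.7e-05 over all tested probes. The 24 h and 2 h groups are those whose values are given above.

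The calprotectin genes took opposite courses. In SCC-61 S100A9 was higher at 24 h by a log2 fold change of 0.74 (SE 0.06, adjusted p = 1.16e-11) and S100A8 by 0.72 (SE 0.09, adjusted p = 1.32e-07). In HaCaT S100A9 fell at 24 h by 1.95 on the log2 scale (SE 0.06, adjusted p = 6.31e-22), 3.86-fold below its 2 h level, and S100A8 fell by 1.70 (SE 0.09, adjusted p = 5.89e-16). No 24 h array overlapped a 2 h array in either line for either gene, as was so for 59.7% of all tested probes in SCC-61 and 63.5% in HaCaT. The difference of the time courses, SCC-61 minus HaCaT, was 2.69 (SE 0.09, adjusted p = 1.64e-20) for S100A9 and 2.42 (SE 0.13, adjusted p = 4.21e-15) for S100A8. S100A7 rose in SCC-61 by 1.28 (SE 0.13, adjusted p = 1.24e-09), the largest rise of the 10 genes there, and its change in HaCaT of -0.20 (95% interval -0.47 to 0.06) did not pass. Its difference of time courses was 1.48 (SE 0.18, adjusted p = 1.23e-07). The HaCaT values of S100A8 at 24 h and of S100A7 at both times lay close to the lowest detected probes, which limits how far a fall could be read. In SCC-61 the summed linear intensity of the 11 leukocyte markers was 280 to 320 at 24 h and 210 to 233 at 2 h. PTPRC, CSF3R and CD3E were undetected. CSF1R averaged 5.73 at 24 h and 5.06 at 2 h in untreated SCC-61, and ITGAM was detected on all 3 of these arrays at 24 h. LYZ went the other way, detected on 0 untreated SCC-61 arrays at 24 h and on 2 at 2 h. The 11 keratinocyte markers summed to 19814 to 20647 at 24 h and 16140 to 16875 at 2 h. In HaCaT the leukocyte sum was 231 to 238 at 24 h and 205 to 217 at 2 h. The part of these markers in the changes of S100A7, S100A8 and S100A9 was not tested.

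S100A4 and S100A6 rose in both lines, and more in HaCaT. S100A4 was higher at 24 h by 0.75 (SE 0.08, adjusted p = 2.11e-09) in SCC-61 and by 2.01 (SE 0.08, adjusted p = 1.78e-19) in HaCaT, a difference, SCC-61 minus HaCaT, of -1.25 (SE 0.11, adjusted p = 1.93e-10). Its other probe gave 0.37 (SE 0.09) in SCC-61 and 2.62 (SE 0.09) in HaCaT. S100A6 was higher by 0.64 (SE 0.05, adjusted p = 1.67e-11) in SCC-61 and by 1.20 (SE 0.05, adjusted p = 3.31e-18) in HaCaT, a difference of -0.55 (SE 0.07, adjusted p = 5.17e-07), and at 24 h the values of the lines overlapped. In HaCaT markers of other cell types moved over the same hours: the summed linear intensity of the 8 fibroblast markers was 350 to 393 at 24 h and 110 to 127 at 2 h, with LUM at least 7.74-fold and DCN at least 4.72-fold higher and PDGFRA, PDGFRB and THY1 undetected throughout, and that of the 4 endothelial markers was 173 to 193 and 46.7 to 56.6, with VWF at least 4.17-fold higher and PECAM1 undetected. The 11 keratinocyte markers summed to 23425 to 25474 at 24 h and 18125 to 18277 at 2 h. In SCC-61 the fibroblast sum was 385 to 452 at 24 h and 223 to 259 at 2 h. The part of these markers in the S100 changes was not tested.

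S100A2 and S100A16 fell in SCC-61. S100A2 was lower at 24 h by 1.10 on the log2 scale in SCC-61 (log2 fold change -1.10, SE 0.07, adjusted p = 2.10e-14), and its change of -0.08 in HaCaT (95% interval -0.22 to 0.06) did not pass. S100A16 changed by -0.34 (SE 0.06, adjusted p = 2.16e-05) in SCC-61 and by 0.07 (95% interval -0.05 to 0.20) in HaCaT. Both courses differed between the lines, by -1.02 (SE 0.09, adjusted p = 4.95e-10) for S100A2 and -0.41 (SE 0.09, adjusted p = 0.000251) for S100A16. S100A14 rose by 0.45 (SE 0.11) in SCC-61 and 0.68 (SE 0.11) in HaCaT, S100A11 by 0.17 (SE 0.05) and 0.32 (SE 0.05), and S100A10 by 0.11 (SE 0.04) and 0.15 (SE 0.04), all past the threshold. For these 3 genes the difference of the time courses did not pass, with 95% intervals of -0.55 to 0.09 for S100A14, -0.30 to -0.003 for S100A11 (adjusted p = 0.0994) and -0.16 to 0.08 for S100A10. In all, 7 of the 10 genes differed in time course between the lines, 3 upwards and 4 downwards, against 39.6% of all tested probes (18.9% upwards and 20.8% downwards). The rise of S100A10 in SCC-61 lost its call without untreated SCC-61 24 h replicate 1 (adjusted p = 0.0594) or replicate 3 (adjusted p = 0.115), or without 2 h replicate 2 (adjusted p = 0.0715) or replicate 3 (adjusted p = 0.0558). The dimmer S100A10 probe averaged 13.05 at 24 h and 12.85 at 2 h in untreated SCC-61, and 13.21 and 13.01 in untreated HaCaT.

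**Figure D3:**
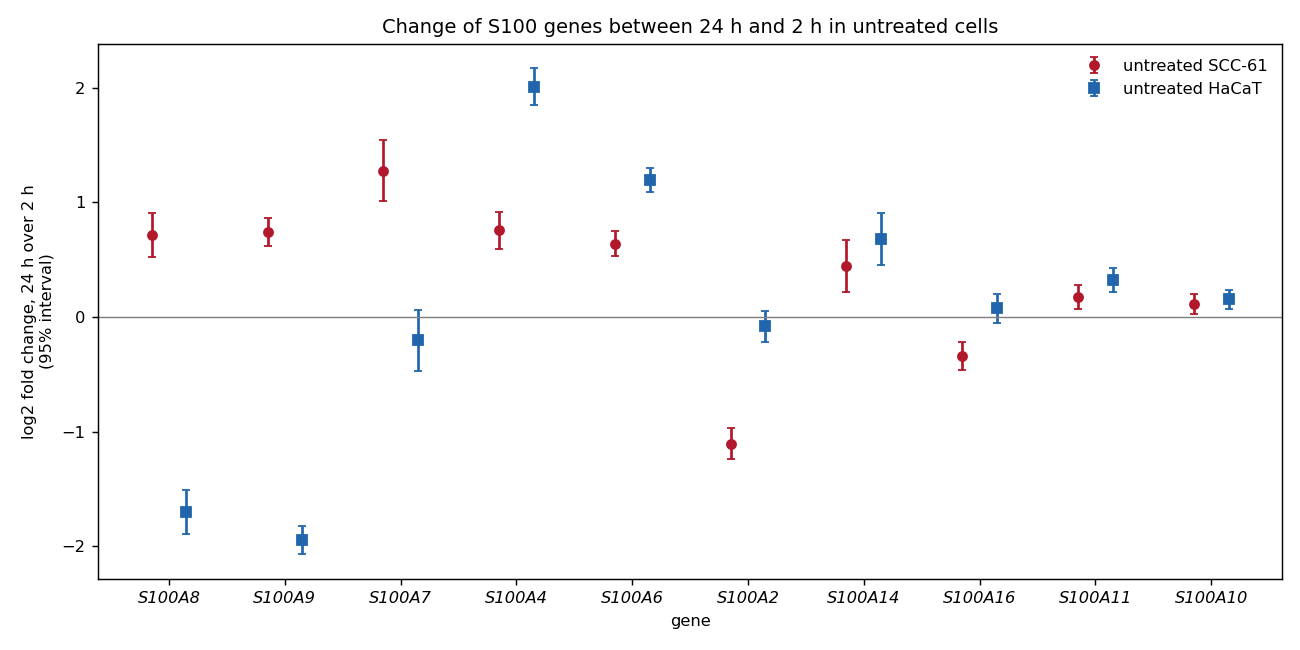
Log2 fold change, 24 h over 2 h, in untreated cells (y axis, with 95% intervals) for each S100 gene (x axis). Red circles are SCC-61 and blue squares HaCaT. S100A8 and S100A9 lie above 0 in SCC-61 and below 0 in HaCaT, S100A4 and S100A6 lie above 0 in both with the higher value in HaCaT, and S100A2 lies below 0 in SCC-61 with an interval that spans 0 in HaCaT.

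Among related genes, S100P followed the calprotectin genes in direction, higher at 24 h by 0.68 (SE 0.08, adjusted p = 8.19e-09) in SCC-61 and lower, with -0.63 (SE 0.08, adjusted p = 2.57e-08), in HaCaT. S100A13 rose by 1.07 (SE 0.06, adjusted p = 3.53e-15) in HaCaT, while in SCC-61 its probes disagreed, with 0.21 (SE 0.06) for the brightest and -0.38 for a dimmer one, both past the threshold. Of the 5 other S100 genes tested, 3 were higher and 1 lower at 24 h in SCC-61, and 2 higher and 2 lower in HaCaT. S100A7A, 1 of the 2 lower ones, was below detection on all 6 untreated HaCaT arrays, so its value there is not a measured change. S100PBP rose in HaCaT (0.35, adjusted p = 0.000238) and did not pass in SCC-61. BSG, the gene of basigin, a receptor of S100A9, rose by 0.71 (SE 0.07, adjusted p = 6.73e-10) in SCC-61 and 0.22 (SE 0.07, adjusted p = 0.00924) in HaCaT. SCARB1, a scavenger receptor gene, rose by 0.46 (SE 0.08) in SCC-61 and fell by 0.57 on the log2 scale in HaCaT (SE 0.08), and the 8 receptor genes tested held 6 higher and 1 lower in SCC-61 and 4 higher and 1 lower in HaCaT. LY96, counted among these 4, was below detection on all 6 untreated HaCaT arrays, so its value there is not a measured change. The counts of these related genes stand beside 51.9% of all tested probes in SCC-61 and 57.9% in HaCaT.

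The third comparison is AMP-18 against untreated cells. Over the 10 genes and the 4 combinations of line and time, a single change passed the threshold: S100A9 was higher with AMP-18 in HaCaT at 24 h, by 1.27-fold. It measured 6.33, 6.33 and 6.17 in HaCaT with AMP-18 at 24 h, against 5.87, 5.92 and 6.0 in untreated HaCaT at 24 h. All 3 treated arrays lay above all 3 untreated ones, and the log2 fold change was 0.35 (SE 0.06, adjusted p = 0.00243). Of all tested probes 1.6% passed in this comparison, so that 1 of 10 genes stands beside 1.6%. The call held without each of the 6 arrays in turn, but the change was small beside the 1.95 by which untreated HaCaT cells had lost S100A9 since 2 h. It was lost when the 6 arrays were fitted alone (adjusted p = 0.266) and by the methods' t-test (adjusted p = 0.401). S100A8, its partner, measured 5.15, 5.19 and 4.82 with AMP-18 against 5.28, 4.92 and 4.79 untreated, with overlapping groups and a log2 fold change of 0.05 (95% interval -0.14 to 0.24).

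S100A2 came next in HaCaT at 24 h. It measured 10.31, 10.14 and 10.23 with AMP-18, against 10.03, 9.95 and 9.97 untreated, without overlap, and its log2 fold change of 0.25 (SE 0.07) just missed the threshold (adjusted p = 0.0555). It passed under cyclic loess normalization (adjusted p = 0.0496), under a robust trend (adjusted p = 0.0489) and with the stricter detection filter (adjusted p = 0.0406), and without HaCaT AMP-18 replicate 2 (adjusted p = 0.033). Groups did not overlap for 2 of the 10 genes, S100A9 and S100A2, and for 16.7% of all tested probes. The other 8 genes had log2 fold changes between -0.16 and 0.15. S100A3, outside the 10, rose by 0.37 (SE 0.07, adjusted p = 0.00996), the single one of the 5 other S100 genes tested to pass, with 8.02 to 8.09 in HaCaT with AMP-18 and 7.58 to 7.82 in untreated HaCaT.

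In SCC-61 at 2 h, 0 of the 10 genes passed by limma, against 8.64% of all tested probes. An unadjusted p under 0.05 was reached by 6 of the 10, and by 4683 of the 21580 tested probes. The 3 antimicrobial genes had positive values. S100A8 measured 10.82, 10.83 and 10.87 with AMP-18, against 10.57, 10.66 and 10.49 untreated, without overlap, a log2 fold change of 0.26 (SE 0.09, adjusted p = 0.078). S100A7 measured 7.12, 7.08 and 6.77 with AMP-18, against 6.68, 6.77 and 6.68 untreated, where 1 treated array reached down to the untreated ones, a log2 fold change of 0.28 (SE 0.13, adjusted p = 0.198). S100A9 measured 11.95, 11.90 and 11.72 with AMP-18, against 11.72, 11.70 and 11.73 untreated, again with 1 treated array among the untreated, a log2 fold change of 0.14 (SE 0.06, adjusted p = 0.167).

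Negative values with an unadjusted p under 0.05 at 2 h in SCC-61 were those of S100A6 (-0.16, SE 0.05, adjusted p = 0.0595), S100A2 (-0.19, SE 0.07, adjusted p = 0.08) and S100A14 (-0.23, SE 0.11, adjusted p = 0.214). S100A6 measured 11.33, 11.33 and 11.30 with AMP-18, against 11.48, 11.53 and 11.42 untreated, and the groups did not overlap. For S100A4, S100A10, S100A11 and S100A16 the log2 fold changes lay between -0.09 and 0.08. That range leaves out the dimmer S100A4 probe, which averaged 5.09 with AMP-18 and 5.28 untreated, with overlapping groups. Groups did not overlap for 4 of the 10 genes, S100A8 upwards and S100A6, S100A11 and S100A14 downwards, against 27.3% of all tested probes. Weighting the arrays by quality brought 5 genes past the threshold, S100A7, S100A8 and S100A9 upwards and S100A6 and S100A11 downwards, and S100A8 also passed when these 6 arrays were fitted alone (adjusted p = 0.0248) and with 16 added to each linear intensity (adjusted p = 0.0227). With the stricter detection filter S100A6 passed downwards (adjusted p = 0.038). By the methods' t-test 0 passed. Without AMP-18 replicate 3 S100A9 passed (adjusted p = 0.0363), and without untreated replicate 3 S100A2 did (adjusted p = 0.0374).

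Of the receptor genes, 2 of 8 tested rose with AMP-18 in SCC-61 at 2 h. Of all 21580 tested probes 1864 passed there (8.64%), 1068 of them higher. BSG measured 11.20 to 11.41 with AMP-18 and 10.73 to 10.77 untreated, a log2 fold change of 0.55 (SE 0.07, adjusted p = 3.30e-05). SCARB1 measured 9.07 to 9.13 with AMP-18 and 8.70 to 8.84 untreated, a log2 fold change of 0.35 (SE 0.08, adjusted p = 0.00346). Their AMP-18 effect at 2 h differed between the lines, SCC-61 minus HaCaT, by 0.57 (SE 0.10, adjusted p = 0.00118) for BSG and 0.44 (SE 0.11, adjusted p = 0.0154) for SCARB1. None of the 5 other S100 genes, 4 fused-type genes or 11 annexins tested passed there, nor did S100PBP. Keratinocyte markers moved in the same comparison: 8 of the 11 were higher with AMP-18, and their summed intensity was 20395 to 20947 with AMP-18 and 16140 to 16875 untreated. In HaCaT at 2 h the sum went the other way, with 17053 to 17356 with AMP-18 and 18125 to 18277 untreated. At 24 h it was 20732 to 20803 and 19814 to 20647 in SCC-61, and 24294 to 25591 and 23425 to 25474 in HaCaT. The part of these markers in the S100 values was not tested.

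In SCC-61 at 24 h, 0 of the 10 genes passed, against 0.283% of all tested probes. An unadjusted p under 0.05 was reached by 0 of the 10, and by 2189 of the 21580 tested probes. Of the 10 genes 9 had negative values, the antimicrobial genes among them, and 1, S100A6, had a positive value. The median log2 fold change of the 10 was -0.07, so the negative sign was not particular to the antimicrobial genes. S100A7 measured 7.78, 7.72 and 7.71 with AMP-18, against 8.16, 7.83 and 7.97 untreated. Its log2 fold change was -0.25 (95% interval -0.51 to 0.02). S100A8 measured 11.15, 11.24 and 11.13 with AMP-18, against 11.33, 11.27 and 11.28 untreated, a log2 fold change of -0.12 (95% interval -0.31 to 0.07). Both pairs of groups did not overlap, as was so for 18.3% of all tested probes, and neither change passed. S100A9 had -0.07 (95% interval -0.19 to 0.05), and the other 7 genes lay between -0.12 and 0.08. That range leaves out the dimmer S100A4 probe, which averaged 5.51 with AMP-18 and 5.65 untreated, with overlapping groups.

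In HaCaT at 2 h, 0 of the 10 genes passed, and 1 of the 21580 tested probes did (0.00463%). An unadjusted p under 0.05 was reached by 1 of the 10, S100A7, and by 1653 of all tested probes. S100A7 measured 5.25, 5.36 and 5.33 with AMP-18, against 5.48, 5.64 and 5.67 untreated, without overlap, a log2 fold change of -0.28 (SE 0.13, adjusted p = 0.629). The other 9 genes lay between -0.12 and 0.03, and S100A9 had -0.11 (95% interval -0.23 to 0.01). That range leaves out the dimmer S100A4 probe, which averaged 7.38 with AMP-18 and 7.57 untreated, without overlap.

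**Figure D4:**
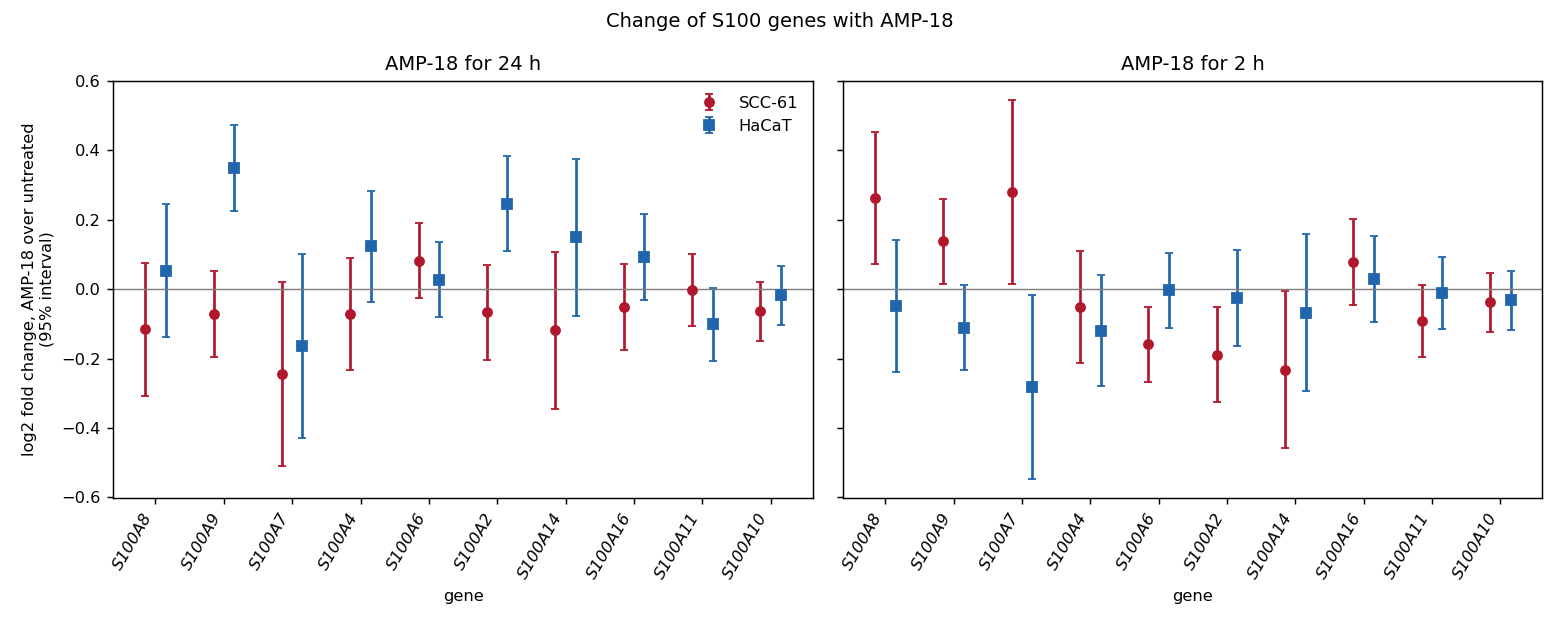
Log2 fold change, AMP-18 over untreated (y axis, with 95% intervals), for each S100 gene (x axis) after 24 h (left) and 2 h (right). Red circles are SCC-61 and blue squares HaCaT. S100A9 in HaCaT at 24 h, at 0.35, is the value that passed adjustment over all tested probes, and the other values lie between -0.28 and 0.28.

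The last question is whether the AMP-18 effect differed between lines or times, tested as a difference of differences. These tests share arrays with the comparisons above. At 24 h the effect on S100A9 differed between the lines, SCC-61 minus HaCaT, by -0.42 (SE 0.09, adjusted p = 0.0333), the single one of the 10 genes to pass, against 0.148% of all tested probes. That call did not hold without any 1 of 9 of the 12 arrays, when its adjusted p lay between 0.0515 and 0.0945: HaCaT AMP-18 replicates 1 and 2, untreated HaCaT replicates 1 and 2, SCC-61 AMP-18 replicates 1, 2 and 3, and untreated SCC-61 replicates 1 and 3. In HaCaT the effect on S100A9 was higher at 24 h than at 2 h, by 0.46 (SE 0.09, adjusted p = 0.0174), again the single gene of the 10, against 0.158% of all tested probes. It lost its call without untreated 24 h replicate 1 (adjusted p = 0.0603) or replicate 2 (adjusted p = 0.0569), or without untreated 2 h replicate 3 (adjusted p = 0.0659).

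At 2 h 0 of the 10 genes differed between the lines in their AMP-18 effect, against 3.92% of all tested probes. An unadjusted p under 0.05 was reached by 4 of the 10, and by 3733 of the 21580 tested probes. The value closest to the threshold was that of S100A7, 0.56 (SE 0.18, adjusted p = 0.0811), followed by S100A9 with 0.25 (SE 0.09, adjusted p = 0.101) and S100A8 with 0.31 (SE 0.13, adjusted p = 0.203). Without SCC-61 AMP-18 2 h replicate 3 both S100A7 (adjusted p = 0.0434) and S100A9 (adjusted p = 0.0311) passed. Within SCC-61 0 of the 10 genes differed in effect between 24 h and 2 h, against 1.78% of all tested probes. Here too 4 of the 10 had an unadjusted p under 0.05, as did 2902 of the 21580 tested probes. Of these 4, S100A7 had -0.53 (SE 0.18, adjusted p = 0.159), S100A8 -0.38 (SE 0.13, adjusted p = 0.158), S100A9 -0.21 (SE 0.09, adjusted p = 0.257) and S100A6 0.24 (SE 0.07, adjusted p = 0.103).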

How the data were processed

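RNA of 24 samples, 3 for each combination of line, treatment and time, was hybridised to Illumina HumanHT-12 v4 bead arrays. The deposited log2 values, for which the submitters' processing notes name GenomeStudio 2011.1, have a median of 4.22 and the same highest value on every array, as quantile normalization gives, but the background correction and normalization are not given in the sources used here. They were used without further scaling. The authors also deposited detection p-values per probe and array. Between 39.7% and 46.8% of probes were detected per array, arrays of one group correlated at 0.981 to 0.987, and the small number of arrays limits the precision.

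Of 47323 probes, 30113 had 1 gene symbol, 8 several and 17202 none in the platform annotation, which can be old. A probe was tested where all 3 arrays of some group detected it (detection p under 0.05), which held for 21580. Group means of the 8 groups were fitted together in limma 3.58.1 (R 4.3.3) with a mean-dependent prior, and p-values were adjusted by Benjamini-Hochberg over all tested probes, at a threshold of 0.05. Fold changes are of intensities. A gene is given by its tested probe with the highest mean, and counts and ranges use that probe. For S100A4 and S100A10 the other probe is given where it is named. Every gene of the set was named, and of the other lists up to 4 genes past the threshold with the largest change, with ANXA1, ANXA2, AGER, S100A12 and S100PBP added after the values were seen. Where a gene was detected on no array of a group, the fold is a bound against the lowest detected probe of each array. The genes, lists and tests were chosen with earlier results of these data known. The scripts were tested on simulated data. Replicate numbers did not pair the arrays. Alternatives covered filters, scaling, an added constant, the fit and each array left out. The methods' t-test here is a pooled-variance test of each pair of groups, tried as an alternative. The study listed a t test among its general statistics, and for the arrays it ranked genes by how well they separated groups.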

Additional observations from a re-analysis of the deposited data

Results flagged for a closer look

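Of the results above, 9 were differences of an effect between groups that passed a test of the difference itself. They are values only, with no explanation weighed.

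The change between 24 h and 2 h in untreated cells, SCC-61 minus HaCaT, differed for 7 of the 10 S100 genes. It was 2.69 on the log2 scale for S100A9 (SE 0.085, adjusted p = 1.64e-20), 2.42 for S100A8 (SE 0.13, adjusted p = 4.21e-15) and 1.48 for S100A7 (SE 0.18, adjusted p = 1.23e-07). It was -1.25 for S100A4 (SE 0.11, adjusted p = 1.93e-10), -1.02 for S100A2 (SE 0.095, adjusted p = 4.95e-10), -0.55 for S100A6 (SE 0.075, adjusted p = 5.17e-07) and -0.41 for S100A16 (SE 0.086, adjusted p = 0.000251). These 7 calls held in every alternative tried and without each array in turn. In HaCaT, S100A8 at 24 h and S100A7 at both times lay close to the lowest detected probes.

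The AMP-18 effect on S100A9 at 24 h differed by -0.42, SCC-61 minus HaCaT (SE 0.085, adjusted p = 0.0333). In HaCaT it was higher at 24 h than at 2 h by 0.46 (SE 0.085, adjusted p = 0.0174). Both share the untreated HaCaT arrays of 24 h, and neither call held in every alternative.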

How the results depend on the processing

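Every alternative kept the direction of each called value of the 10 genes. Of 2720 values under an alternative, 2662 stayed on their side of the threshold, 33 lost the call and 25 gained it. The calls between lines and between times changed for S100A10 alone. With AMP-18 in SCC-61 at 2 h, where 0 genes passed, 5 passed with array weights. There 1 passed with the constant of 16 and with only the 6 arrays (S100A8 upwards), and 1 with the stricter filter (S100A6 downwards). Leaving out an array gave 0 to 1. In HaCaT at 24 h, where 1 passed, 2 passed with cyclic loess, a robust trend or the stricter filter and 0 with only the 6 arrays or the methods' t-test (1 to 2 leaving out an array). The line difference of the effect at 2 h, 0 genes, became 2 with array weights and 1 with only the arrays compared (0 to 2 leaving out an array). That at 24 h, 1 gene, became 0 with the constant of 16, no filter, no trend, only the arrays compared and a fixed replicate block (0 to 1 leaving out an array). The effect between times, 0 genes in SCC-61, became 3 with array weights and 2 with only the arrays compared. In HaCaT, 1 gene became 0 with no trend and only the arrays compared (0 to 1 leaving out an array). The causes were not tested.

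The replicate numbers did not pair the arrays: same-numbered arrays deviated together with correlations of -0.16 to 0.05 over 24 pairs. The replicate block changed no other count of S100 genes and moved the line difference of the AMP-18 effect at 24 h to 15 probes, against 32.

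Counts over all tested probes moved most with AMP-18. The 1864 probes of SCC-61 at 2 h became 3332 with array weights, 1078 with only the arrays compared and 19 with the methods' t-test. The 61 at 24 h became 295, 93 and 0, and 39 with no filter, 11 with no trend and 97 with the stricter filter. The 1 of HaCaT at 2 h became 16, 116 and 0. The 346 at 24 h became 206 with no filter, 165 with no trend, 11 with only the arrays compared and 0 with the methods' t-test. The line difference of the effect, 847 at 2 h and 32 at 24 h, became 1949 and 178 with array weights, 557 and 10 with no filter, and 481 and 11 with no trend, and at 24 h 2 with only the arrays compared and 93 with the stricter filter. The effect between times, 384 in SCC-61 and 34 in HaCaT, became 1083 and 118 with array weights and 145 and 7 with no trend, 238 in SCC-61 with no filter, and 16 with only the arrays compared and 60 with the stricter filter in HaCaT. Leaving out an array gave 1086 to 1668 and 8 to 43 probes in SCC-61 at 2 h and 24 h, 0 to 15 and 98 to 535 in HaCaT, 507 to 1126 and 8 to 220 for the line difference, and 175 to 450 in SCC-61 and 7 to 110 in HaCaT for the effect between times. With 3 arrays a group, small changes of S100 genes may go unseen.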

Other observations

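Beyond the S100 genes, the probes were ranked by how closely they followed the mean of S100A8 and S100A9 over the 12 SCC-61 arrays. Those nearest to it were ITM2C, TMEM179B, MFSD6, POFUT2 and MDK, the gene of the growth factor midkine, and those most opposed were MRPL37, ZNF17, CCT4, CENPM and TFB2M. MDK averaged 11.10 with AMP-18 and 11.23 untreated at 24 h, and 9.81 with AMP-18 and 9.39 untreated at 2 h. The 12 arrays fall into 24 h and 2 h arrays, so the ranking mostly reads the time difference, and 11.9% of the 16514 ranked probes followed it at a Pearson coefficient above 0.9. No coefficient is given for single genes for that reason.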
